A study of Homo sapiens with 8 samples.

Results

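Transcripts of 10 genes, the ligands TGFA, EGF, AREG, EREG, HBEGF and BTC and the receptors EGFR, ERBB2, ERBB3 and ERBB4, were followed in UM-RC-2 cells with and without introduced VHL. All 10 symbols were found among the 43682 gene symbols of the RNA count tables. The set was put together because TGFA, known as a target of hypoxia-inducible factors (HIF), had been seen to be higher with VHL in these same libraries. Its change is therefore described without a test, and the other 9 genes entered as members of its family.

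UM-RC-2 is an established clear cell renal carcinoma line with a missense change in VHL per the labels. Cells stably carried either a lentiviral construct named VEC or one for VHL, both selected in blasticidin, and RNA was sequenced from 2 VEC and 2 VHL libraries numbered replicate 1 and 2. A library is named by its group and number (VEC1, VHL1, VEC2 and VHL2), and pair 1 and pair 2 are the libraries that share a number. The labels do not say whether the replicates were separate cultures or infected populations, so p-values measure the spread between these libraries, which may be technical. H3K27ac tables of the series were not used, since their regions carry no positions and cannot be assigned to a gene.

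ERBB receptors are cell-surface tyrosine kinases that form pairs when a ligand binds. The ligands are made as membrane-bound precursors that metalloproteases release, TGFA and EGF bind EGFR, and HBEGF and BTC bind EGFR and ERBB4. ERBB2 has no known ligand and ERBB3 has little kinase activity of its own, so both signal through partners, and the activated pairs feed the RAS-MAPK and PI3K pathways. VHL directs the HIF alpha subunits to degradation, and TGFA together with EGFR is known as a growth loop of VHL-deficient renal carcinoma.

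The libraries stood apart by replicate number before any group was compared. Total counts were between 16230291 and 50027348. Pearson's r of log2(CPM + 1) across 21673 genes was 0.991 and 0.978 within the pairs, against 0.504 between the VEC and 0.534 between the VHL libraries, and pseudogenes took 1.37% to 2.07% of counts in replicate 1 but 24.9% to 31.3% in replicate 2. Levels are given as CPM, counts scaled to the normalised library size. VHL itself was at 37.1 CPM in VEC1 and 146 in VHL1, and at 88.9 in VEC2 and 151 in VHL2. All 6 HIF reference genes were lower with VHL in both pairs, among them CA9 (67.5 CPM in VEC1, 1.55 in VHL1, 61.8 in VEC2, 1.40 in VHL2). Over all genes tested 25% were lower in both pairs, and 29.2% of protein-coding genes tested. Of 9 renal epithelial markers 8, PAX8 among them, exceeded 1 CPM in every library, with EPCAM at 0 to 2 counts. The 5 endothelial markers summed to at most 0.214 CPM and the 5 fibroblast markers to at most 0.49 CPM. The 5 leukocyte markers summed to 17.6 CPM in VEC1 and 11.7 in VHL1, and to 87.5 in VEC2 and 82.4 in VHL2. Values are therefore given within each pair, beside the estimates of a model of group alone (the group-only fit) and of a model that also holds a term for the replicate (the replicate-term fit). In bulk RNA, fewer cells that express a gene and less of its RNA per cell cannot be told apart.

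The promoter windows of TGFA and of EGF and HBEGF, the other ligands with a mean of over 100 counts that were higher with VHL in both pairs, are shown because HIF acts through a short core motif. They come from RefSeq on GRCh38.p14, span 250 bases before to 50 after an annotated start, and are read 5′ to 3′ along the gene. Capitals mark ACGTG or GCGTG on the strand shown, or CACGT or CACGC where the motif lies on the other strand. The counts themselves were made on hg19.
TGFA window 1, chr2:70553777-70554076, minus strand: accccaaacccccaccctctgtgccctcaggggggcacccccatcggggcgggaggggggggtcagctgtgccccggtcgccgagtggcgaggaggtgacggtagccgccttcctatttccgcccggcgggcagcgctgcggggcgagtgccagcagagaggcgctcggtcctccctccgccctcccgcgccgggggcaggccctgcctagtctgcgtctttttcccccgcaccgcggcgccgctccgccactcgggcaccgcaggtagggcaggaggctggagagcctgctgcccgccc
TGFA window 2, chr2:70553397-70553696, minus strand: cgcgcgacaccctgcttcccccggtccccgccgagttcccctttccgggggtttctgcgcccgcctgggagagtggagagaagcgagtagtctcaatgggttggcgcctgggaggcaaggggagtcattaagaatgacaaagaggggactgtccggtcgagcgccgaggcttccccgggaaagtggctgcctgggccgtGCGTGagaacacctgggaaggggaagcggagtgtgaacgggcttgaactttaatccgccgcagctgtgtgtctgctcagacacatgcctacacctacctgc
EGF, chr4:109912633-109912932, plus strand: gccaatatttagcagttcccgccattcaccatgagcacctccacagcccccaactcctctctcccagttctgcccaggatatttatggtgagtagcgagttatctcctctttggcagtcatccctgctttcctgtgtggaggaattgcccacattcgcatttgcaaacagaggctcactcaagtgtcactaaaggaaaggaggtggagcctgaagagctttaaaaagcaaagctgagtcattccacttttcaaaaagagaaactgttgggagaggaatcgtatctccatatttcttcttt
HBEGF, chr5:140346554-140346853, minus strand: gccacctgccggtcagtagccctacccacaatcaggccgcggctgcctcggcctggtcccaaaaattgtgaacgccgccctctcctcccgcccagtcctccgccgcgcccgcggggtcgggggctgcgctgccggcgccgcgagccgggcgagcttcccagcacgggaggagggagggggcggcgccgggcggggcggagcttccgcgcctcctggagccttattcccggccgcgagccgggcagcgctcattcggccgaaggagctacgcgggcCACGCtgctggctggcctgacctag
TGFA window 2 held 1 match, whose first base is 51 bases before that start, and window 1 held none. HBEGF had 1 match on the opposite strand, after its start, and EGF had none. The table held windows for 9 of the 10 genes (11 windows in all, ERBB3 not among them), and 6 of the 11 held at least 1 match, in TGFA, AREG, EREG, HBEGF, BTC and ERBB4. Of all 35116 windows of 300 bases, 48.4% held a match, so these letters are common in promoters. A match is a description of the sequence and says nothing of binding.

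TGFA, the ligand that gave rise to the comparison, stood at 30.7 CPM in VEC1 (711 counts), 50.5 in VHL1 (943), 18.4 in VEC2 (839) and 31.9 in VHL2 (1301). Both VHL libraries lay above both VEC libraries on this scale, although VHL2 and VEC1 were close, and scaled by library totals instead VHL2 (27.9 CPM) was below VEC1 (33.4). The log2 change of VHL against VEC was 0.72 within pair 1 (exact 95% interval 0.58 to 0.86) and 0.79 within pair 2 (0.67 to 0.92). These Clopper-Pearson intervals, here and for the other genes, cover counting error only. The pairs gave folds of 1.64 and 1.73. The group-only estimate was 0.75 ± 0.70 (SE of the fit, 2 libraries a group), and the replicate-term estimate was 0.76 ± 0.22. The change of TGFA was smaller when pair 2 was scaled by protein-coding counts (log2 change 0.60), a scaling that moved the median of all genes in that pair to -0.19.

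**Figure D1:**
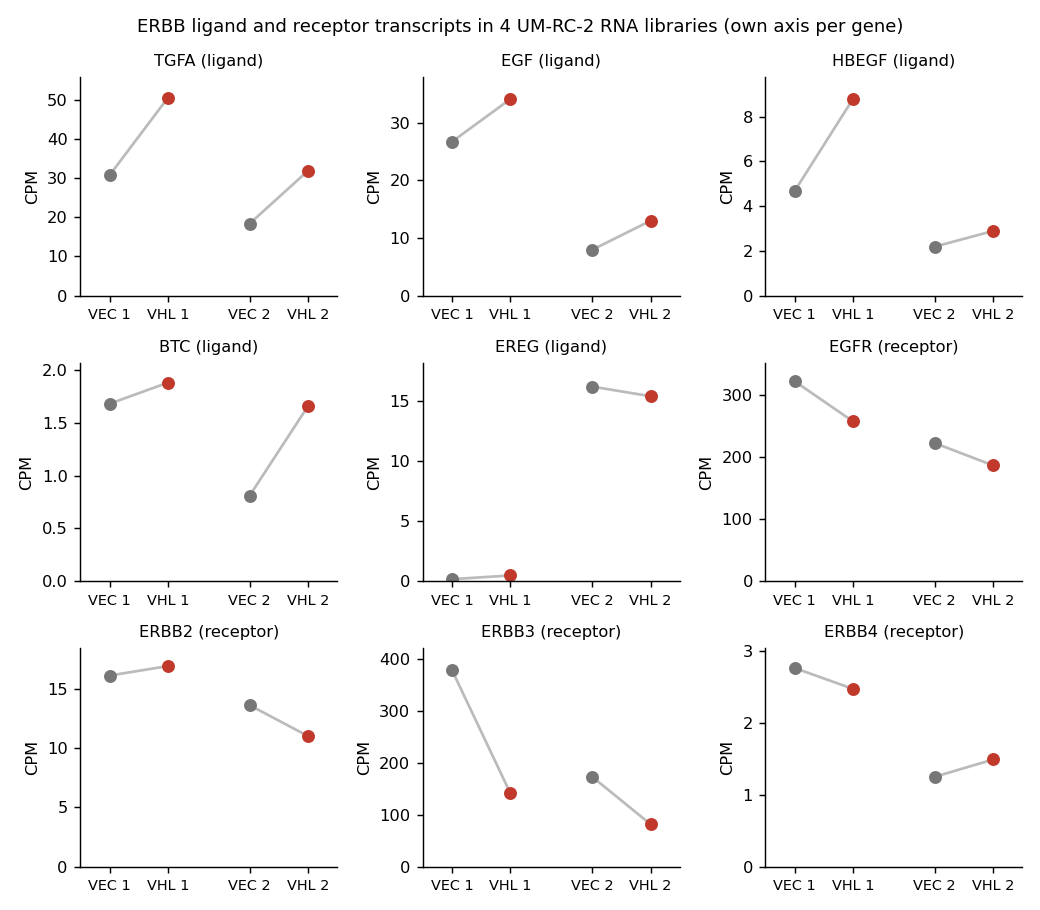
CPM of 9 ligand and receptor genes in each library, with VEC in grey and VHL in red, a line joining the libraries of a pair, and a separate axis from 0 for each gene. With this TMM scaling TGFA and ERBB3 are the genes whose VEC and VHL libraries do not overlap, which is lost when scaling by library totals, and EREG separates by replicate number. AREG, with at most 5 counts, is not drawn.

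EGF, the founding ligand of the family, was also higher with VHL in both pairs. Its level was 26.7 CPM in VEC1, 34.1 in VHL1, 7.96 in VEC2 and 13.0 in VHL2. The difference between replicates was larger than that between groups, and the groups overlapped. Log2 changes were 0.35 (interval 0.19 to 0.52) and 0.70 (0.51 to 0.90). Neither edgeR fit called EGF (group-only 0.44 ± 1.09, adjusted p = 0.999991; replicate-term 0.53 ± 0.25, adjusted p = 0.321).

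HBEGF, the heparin-binding ligand, and BTC, betacellulin, pointed the same way from fewer reads. HBEGF stood at 4.67 CPM in VEC1 (108 counts), 8.79 in VHL1 (164), 2.19 in VEC2 (100) and 2.89 in VHL2 (118), so that VHL2 was below VEC1. Its log2 changes were 0.91 (interval 0.56 to 1.28) and 0.39 (0.001 to 0.80), with 0.66 ± 0.37 under the replicate term (edgeR adjusted p = 0.488). BTC stood at 1.68 CPM in VEC1 (39 counts), 1.88 in VHL1 (35), 0.811 in VEC2 (37) and 1.66 in VHL2 (68). The larger difference was that of pair 2, as the log2 changes were 0.15 (interval -0.55 to 0.85) and 0.98 (0.44 to 1.66), with 0.61 ± 0.52 under the replicate term (edgeR adjusted p = 0.769).

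EREG, epiregulin, differed between replicates rather than between groups. It had 4 counts in VEC1 and 9 in VHL1, against 741 in VEC2 and 627 in VHL2. In the same order these were 0.173, 0.482, 16.2 and 15.4 CPM. Replicate 2 was 94.0-fold above replicate 1 in VEC (interval 36.6 to 346) and 31.8-fold above it in VHL (16.7 to 69.9). Of the 5 leukocyte markers, LYZ had 0 counts in VEC1, 1 in VHL1, 1989 in VEC2 and 1793 in VHL2, and PTPRC had 0, 0, 72 and 63 in that order. Their part in the EREG values was not tested. The log2 change of EREG was -0.08 within pair 2 (interval -0.24 to 0.07), and that of pair 1, at 1.21 (-0.36 to 3.63), rests on few reads. The replicate-term fit gave 0.14 ± 0.38 (edgeR adjusted p = 0.976).

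AREG, amphiregulin, had 1 count in VEC1, 0 in VHL1, 3 in VEC2 and 5 in VHL2 and did not pass the filter on low counts. The RefSeq table lists AREGB as another name of AREG, and hg19 is known to carry both as near-identical copies. How reads with several matches were counted is not given in the sources used here, so the low count cannot be read as lack of the transcript.

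**Figure D2:**
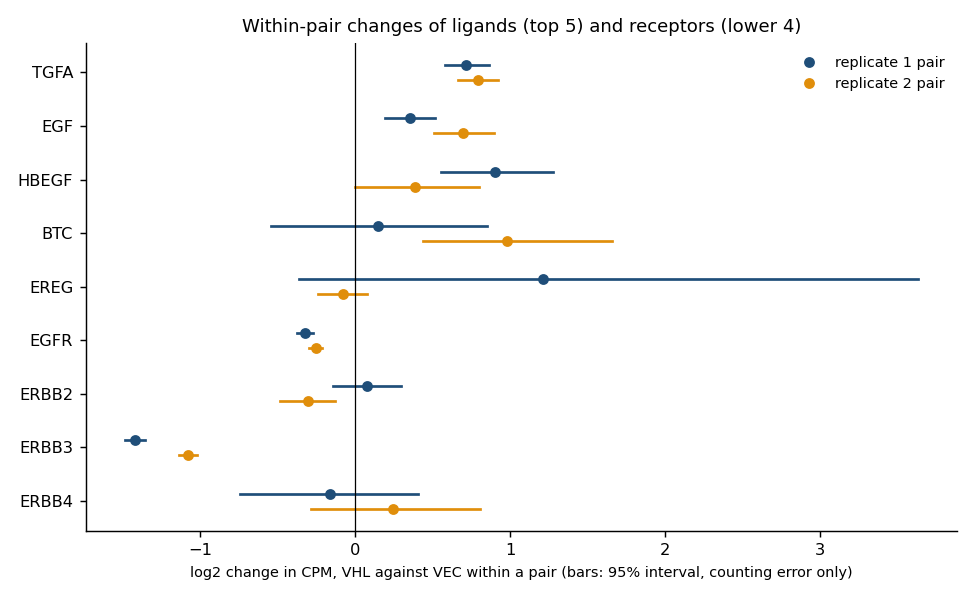
Log2 change of VHL against VEC within each replicate pair for 5 ligands and 4 receptors, with exact 95% intervals for counting error. TGFA (0.72 and 0.79) and EGF (0.35 and 0.70) lie to the right of 0 in both pairs, EGFR (-0.32 and -0.26) and ERBB3 (-1.42 and -1.08) to the left.

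Set against the other ligands, TGFA was thus not alone in its direction. Of the 5 ligands that passed the filter on low counts, 4 were higher with VHL in both pairs under each of 4 scalings (TGFA, EGF, HBEGF and BTC), where 23.4% of all genes tested and 29.9% of protein-coding genes tested were higher in both pairs under the main scaling. These shares are background, and nothing is read from a count of a family chosen through TGFA. The 4 scalings use the same counts and leave counting error as it was. The interval of BTC in pair 1 included 0 (-0.55 to 0.85), and that of HBEGF in pair 2 began at 0.001. The median change of the 4 tested ligands other than TGFA was 0.63 within pair 1 and 0.54 within pair 2, against 0 and -0.005 over all genes. Without EREG, at 4 and 9 counts in pair 1, the medians were 0.35 and 0.70.

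The count ratio of TGFA to another gene within a library does not depend on scaling, and was compared between libraries only. TGFA to EGF was 1.15 in VEC1, 1.48 in VHL1, 2.31 in VEC2 and 2.46 in VHL2. The log2 change of this ratio was 0.36 within pair 1 (interval 0.15 to 0.58) and 0.09 within pair 2 (-0.15 to 0.32), so only the first interval lies above 0. Against HBEGF the ratio changed by -0.20 (interval -0.59 to 0.19) and 0.39 (-0.03 to 0.81), and against BTC by 0.56 (-0.15 to 1.28) and -0.25 (-0.88 to 0.37). Both intervals of each of these ratios include 0, which does not show that the ligands moved by equal amounts. Against EREG the pairs differed in sign, with -0.76 within pair 1 (-2.92 to 1.09), where EREG had 4 and 9 counts, and 0.87 within pair 2 (0.67 to 1.08), where it had 741 and 627.

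**Figure D3:**
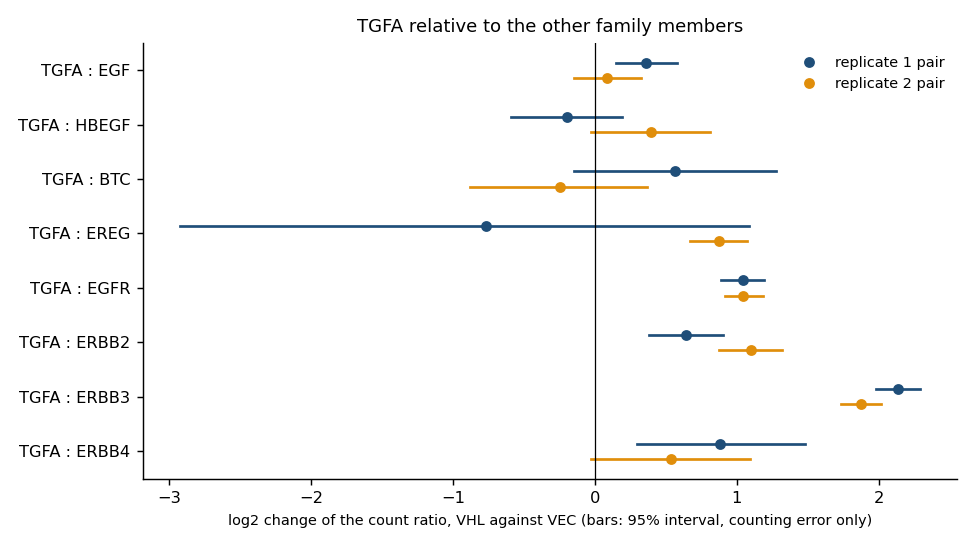
Log2 change, VHL against VEC, of the ratio of TGFA counts to those of each other family member, per pair, with exact 95% intervals for counting error. The ratios to EGFR (1.04 and 1.05) and ERBB3 (2.14 and 1.87) were higher with VHL in both pairs, while those to HBEGF and BTC changed sign between pairs.

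Among the receptors ERBB3, the partner kinase that binds neuregulins, was the one whose change passed the test in the replicate-term fit. It stood at 378 CPM in VEC1 (8752 counts), 141 in VHL1 (2635), 173 in VEC2 (7886) and 81.7 in VHL2 (3337). Both VHL libraries were below both VEC libraries on this scale, but by library totals VHL1 (162 CPM) was above VEC2 (158). Levels were 2.68-fold and 2.12-fold lower within the pairs. The log2 changes were -1.42 (interval -1.48 to -1.36) and -1.08 (-1.14 to -1.02). In the replicate-term fit ERBB3 fell by 1.25 ± 0.24 on the log2 scale (SE, 2 libraries a group, edgeR adjusted p = 1.99e-05), rank 137 by p-value of 24417 genes. That fit had 1 residual degree of freedom, so its p-values draw on dispersion shared across genes. The group-only fit gave -1.31 ± 0.66 and no call (edgeR adjusted p = 0.999991). It called 0 genes, and CA9 (log2 change -5.45) was not called either. Leaving out a library moved the group-only value of ERBB3 to between -1.75 (without VHL replicate 1) and -0.63 (without VEC replicate 1). Of 11329 protein-coding genes that averaged 100 counts or more, TGFA left out, 72 others (0.636%) were at or below ERBB3 in both pairs.

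EGFR, the receptor of TGFA and EGF, was at 323 CPM in VEC1, 258 in VHL1, 223 in VEC2 and 187 in VHL2. VHL was the lower library of each pair, yet the groups overlapped. Its log2 changes were -0.32 (interval -0.38 to -0.27) and -0.26 (-0.30 to -0.21), narrow because the gene had 4810 to 10172 counts. EGFR was called by neither edgeR fit (replicate-term -0.29 ± 0.24, adjusted p = 0.754; group-only -0.30 ± 0.48, adjusted p = 0.999991). DESeq2's Wald test with the replicate term did call it (-0.33, adjusted p = 0.000456). That fit called 1215 of all 24417 genes, of which 391 were also called by edgeR with the replicate term. EGFR and ERBB3 were the 2 receptors lower with VHL in both pairs under each of the 4 scalings, where 25% of all genes tested and 29.2% of protein-coding genes tested were lower in both. The antisense gene EGFR-AS1 had 27 to 85 counts, far fewer than EGFR, and whether reads were counted by strand is not given in the sources used here.

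ERBB2, the receptor without a known ligand, was at 16.1 CPM in VEC1, 16.9 in VHL1, 13.6 in VEC2 and 11.0 in VHL2. The pairs pointed in opposite directions, with log2 changes of 0.08 (interval -0.15 to 0.30) and -0.31 (-0.49 to -0.13), and the replicate term gave -0.12 ± 0.27 (edgeR adjusted p = 0.967). ERBB4, a receptor for HBEGF, BTC and neuregulins, had 46 to 64 counts in the 4 libraries. It was at 2.76 CPM in VEC1, 2.47 in VHL1, 1.25 in VEC2 and 1.49 in VHL2, and its changes of -0.16 (-0.74 to 0.40) and 0.25 (-0.29 to 0.80) again differed in sign (replicate term 0.05 ± 0.47, edgeR adjusted p = 0.996). At this depth a change of ERBB4 within those intervals was not detectable.

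As a family, 8 of the 9 members other than TGFA were tested. With the replicate term 1 of them was called, ERBB3, where 3.1% of all 24417 genes were called (0.749% higher and 2.35% lower with VHL). With group as the only term 0 of the 8 were called, as were 0% of all genes, and 0 of the 8 and 22 of all genes had an unadjusted p under 0.05. DESeq2's group-only Wald test called 0 of the 8 as well. With TMM scaling the groups did not overlap for TGFA, which was higher, and for ERBB3, which was lower. Of all genes tested 4.47% were higher and 3.39% lower without overlap. TGFA was chosen for its direction, so nothing is read from the share beside it. Scaled by library totals TGFA and ERBB3 overlapped, as did the other members, and 3.92% of all genes tested were higher and 2.71% lower without overlap. Scaled by protein-coding totals TGFA and BTC (higher) and ERBB3 (lower) did not overlap. With that scaling 4.12% of all genes tested were higher and 4.44% lower without overlap. With 2 libraries a group the smallest two-sided p of an exact permutation test is 0.333.

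TGFA counts were also set against those of the receptors. The ratio of TGFA to EGFR counts was 0.0952 in VEC1, 0.196 in VHL1, 0.0825 in VEC2 and 0.171 in VHL2, a log2 change of 1.04 (interval 0.89 to 1.19) and 1.05 (0.92 to 1.18). The ratio to ERBB3 was 0.0812, 0.358, 0.106 and 0.390 in the same order, a change of 2.14 (1.98 to 2.30) and 1.87 (1.73 to 2.01). The ratio to ERBB2 changed by 0.64 (0.38 to 0.91) and 1.10 (0.88 to 1.32). The ratio to ERBB4 changed by 0.884 (0.295 to 1.481) and 0.535 (-0.028 to 1.096), the second interval including 0. VHL libraries had the higher ratio in both pairs for each of the 4 receptors. TGFA, chosen for its direction, enters every ratio, so these are descriptions. Transcript ratios say nothing of protein.

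The genes most like TGFA were sought among the same 11329 protein-coding genes by the distance between their changes in the 2 pairs and those of TGFA. The 5 nearest were ABRAXAS1 (0.73 and 0.79, distance 0.0109), ME1 (0.70 and 0.78, distance 0.0217), ZRANB2 (0.71 and 0.77, distance 0.0253), PSAT1 (0.69 and 0.79, distance 0.0257) and SLC26A2 (0.71 and 0.82, distance 0.0275). Within a distance of 0.1 lay 20 genes. In both pairs 83 (0.733%) were at or above TGFA. The likeness rests on 4 libraries and is a description. As TGFA was chosen for its direction, that share does not measure how unusual its change is.

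Other genes of the pathway were grouped by role, and 73 of the 79 listed genes were tested. With the replicate term 3 were called, all higher with VHL, and 0 lower, against 0.749% and 2.35% of all genes (edgeR). At an unadjusted p under 0.05 there were 7 higher and 2 lower, against 1140 and 1910 of all 24417 genes. CCND1, which was lower in both pairs (-0.77 and -0.44), was not called in that fit (edgeR adjusted p = 0.102) but was in the 4 other replicate-term fits that were run. CBL and SOCS4 were called in all 5. The median change of the 73 was 0.07 within pair 1 and 0.15 within pair 2. In the group-only fit 0 were called and 0 had an unadjusted p under 0.05.

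Of the other ERBB ligands, 3 of 5 were tested and 0 called with the replicate term, where 3.1% of all genes tested were called (edgeR). NRG1, a neuregulin that binds ERBB3 and ERBB4, was at 115 CPM in VEC1, 131 in VHL1, 38.7 in VEC2 and 52.7 in VHL2 (log2 changes 0.20 and 0.45, replicate term 0.32 ± 0.22, edgeR adjusted p = 0.63). Of 11 genes for ligand release and trafficking, 10 were tested and 0 were called, beside the same 3.1% of all genes. Their medians were -0.03 and -0.006 in the pairs. Nothing is read from the absence of calls in lists this short. RHBDF1 and RHBDF2 encode the iRhoms that escort the protease ADAM17. RHBDF1 changed by -0.17 and -0.70 (edgeR adjusted p = 0.647 with the replicate term) and RHBDF2 by 0.64 and -0.02 (edgeR adjusted p = 0.921).

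Receptor restraint and turnover genes included 2 that rose with the replicate term among 15 tested, where 0.749% of all genes were called higher. The group-only fit called neither (edgeR adjusted p = 0.999991 for both). CBL, a ubiquitin ligase that sends activated EGFR to degradation, was at 45.5 CPM in VEC1, 81.5 in VHL1, 81.8 in VEC2 and 123 in VHL2 (replicate term 0.71 ± 0.22, edgeR adjusted p = 0.0357). SOCS4, a suppressor of cytokine signalling protein, was at 64.2, 84.5, 54.5 and 107 CPM in that order (0.69 ± 0.22, edgeR adjusted p = 0.0472). Both p-values with the replicate term were close to the threshold. In each gene VHL was the higher library of both pairs. With TMM scaling the groups overlapped for CBL, as VHL1 was just below VEC2. They overlapped by protein-coding totals too, but not by library totals. For SOCS4 the groups did not overlap with TMM scaling, where 4.47% of all genes tested were higher without overlap.

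Adaptors and RAS-MAPK-PI3K genes, which carry the signal from the receptors into the cell, were not called in either fit. All 23 were tested, and 0 were called with the replicate term, where 0 had an unadjusted p under 0.05 (edgeR). In that fit 3.1% of all 24417 genes were called and 3050 had an unadjusted p under 0.05. With 23 genes, nothing is read from the absence of calls. Over all genes tested 23.4% were higher with VHL in both pairs and 25% lower (29.9% and 29.2% of protein-coding genes tested). Among the 23, 4 were higher and 6 lower in both, and 13 changed in opposite directions. Their medians were -0.10 within pair 1 and 0.04 within pair 2. HRAS, a RAS GTPase, stood at 8.73 CPM in VEC1, 7.08 in VHL1, 3.46 in VEC2 and 1.74 in VHL2, with log2 changes of -0.30 and -0.97 and a replicate-term estimate of -0.63 ± 0.36 (SE, edgeR adjusted p = 0.491). BRAF, a kinase that acts below RAS, stood at 73.1, 83.0, 48.7 and 67.1 CPM in the same order, with changes of 0.19 and 0.46 and an estimate of 0.33 ± 0.21 (SE, edgeR adjusted p = 0.614). The groups overlapped for both genes.

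ERK-induced transcripts, which follow MAPK activity in many cells, had medians of 0.32 and 0.25 in the pairs, against 0 and -0.005 over all genes tested. Of 22 tested, 15 were higher with VHL in both pairs and 4 lower in both. Over all genes tested 23.4% were higher in both and 25% lower (29.9% and 29.2% of protein-coding genes tested). The list was chosen with earlier results of these data known, so nothing is read from its count. DUSP5, a phosphatase that acts on ERK in the nucleus, alone passed in edgeR's replicate-term fit, where 0.749% of all genes were called higher. It was at 4.97 CPM in VEC1, 14.5 in VHL1, 3.07 in VEC2 and 7.20 in VHL2 (1.38 ± 0.32 with the replicate term, edgeR adjusted p = 0.00154), and DESeq2's Wald test with that term did not call it. SPRY1, a feedback inhibitor of the pathway, was lower in both pairs (-0.74 and -1.33, edgeR adjusted p = 0.106 with the replicate term), against the direction of most of the list. Among the 4 other replicate-term fits SPRY1 was called lower in 2 (stricter filter, protein-coding genes alone). ETV5, an ETS transcription factor, was called higher in those 2 and by DESeq2's Wald test (0.53 and 0.88 in the pairs, edgeR adjusted p = 0.0804 over all genes), and IER3, an immediate early response gene, in 1, with the stricter filter. SPRY1, ETV5, IER3 and CCND1 were chosen after their values were seen.

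**Figure D4:**
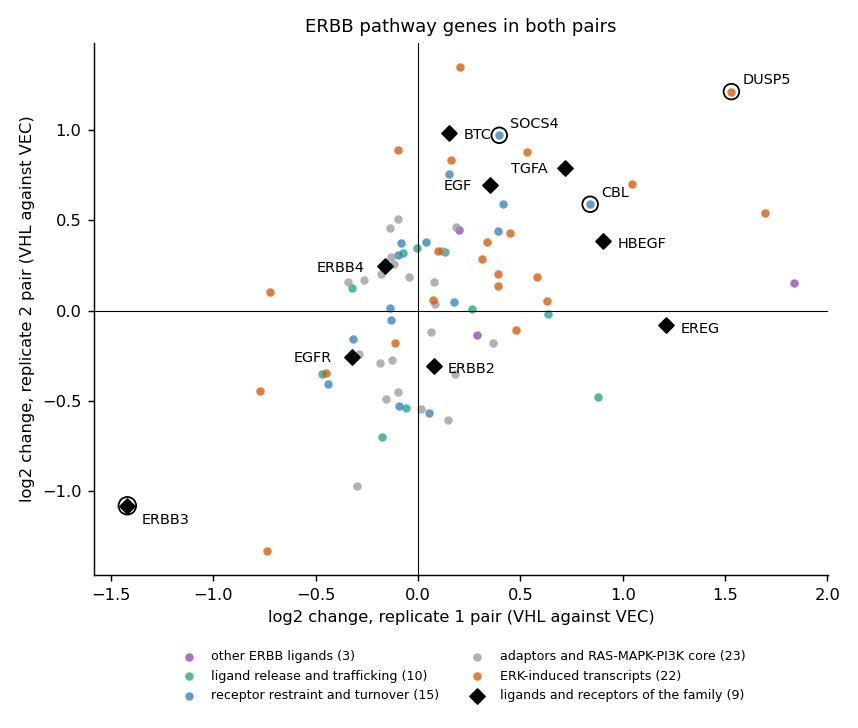
Log2 change of VHL against VEC in pair 1 (x) and pair 2 (y) for 73 pathway genes by role and 9 family members (black diamonds); rings mark genes called by edgeR with the replicate term, TGFA being left untested. DUSP5, SOCS4 and CBL lie with TGFA in the upper right, ERBB3 in the lower left.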

How the data were processed

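RNA from 4 UM-RC-2 libraries was analysed (2 VEC, 2 VHL, grouped and numbered by title; the RNA titles also carry the word ChIP-seq). The values are raw counts per gene symbol as deposited by the authors, made from alignments to hg19 per the file headers. Per the submitters' processing notes the tools named include featureCounts and HOMER; aligner, annotation, strand use and treatment of multi-mapping reads are not given in the sources used here.

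In R 4.3.3 with edgeR 4.0.16, 24417 of 43682 symbols were kept by filterByExpr, scaled by TMM and tested (glmQLFit, glmQLFTest, two-sided, Benjamini-Hochberg over all genes, called under 0.05). Group was the only term, with the replicate number added as an alternative. Standard errors are the absolute log2 change over the square root of F. CPM used TMM-scaled library sizes, within-pair changes a prior count of 2, and intervals the exact Clopper-Pearson method at 95% (for ratios of 2 genes, the exact conditional odds ratio). DESeq2 1.42.0, other scalings and filters, protein-coding genes alone and leaving out each library were alternatives. Gene classes were taken from RefSeq on GRCh38.p14, whose table matched 42740 of the symbols (97.8%). The fits were also run on simulated counts as a check of the code, and the outcome is not used as support here. A gene that was not called is not shown to be unchanged.

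The members, gene lists and rules were chosen with earlier results of these data known. All 10 members were to be named, and from each pathway list up to 4 genes called with the replicate term or, with none called, the 2 with the largest absolute mean of the within-pair changes at a mean of at least 100 counts. Of the lists, 1 gene is not reported here. Scalings of the within-pair changes by library totals, by protein-coding totals and by TMM within each pair, and the overlap of the groups by scaling and the ligand median without EREG, were added after the data were seen.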

Additional observations from a re-analysis of the deposited data

How the results depend on the processing

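The replicate block decided how many genes were called. Without the block edgeR called 0 genes under the other scaling, the other filters, protein-coding genes alone and each left-out library, and DESeq2's Wald test called 6. With the block edgeR called 756, or 999 with DESeq2 size factors, 1276 with the stricter filter and 993 among protein-coding genes, and DESeq2 called 1215. ERBB3 was called in each of these 5 fits with the block (adjusted p from 3.14e-22 to 1.99e-05) and in none without it. Of 73 pathway genes tested, 3 were called with the block, and 4 (3 higher, 1 lower) with DESeq2's Wald test or with DESeq2 size factors. With the stricter filter 7 of 70 were called (5 higher, 2 lower), where 1276 of all 13057 genes were. With protein-coding genes alone 6 of 73 were called (4 higher, 2 lower), where 993 of all 13889 were. The first 3 of these fits tested 24417 genes. Nothing is read from the larger counts, since calls over all genes were also more frequent. No label ties a number to a shared culture or batch, while libraries of 1 number deviated together from their groups (r = 0.982 across 21673 genes).

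Directions near 0 changed. ERBB4 went from -0.02 to 0.048 with the block, and to 0.012 (DESeq2, and DESeq2 size factors), 0.006 (stricter filter) and 0.021 (protein-coding genes) in the other block fits. EREG went from -0.05 to 0.14 with the block, and to 0.45, 0.076 and 0.06 with DESeq2, DESeq2 size factors and protein-coding genes. Leaving out a library unbalances the replicates by construction, and values then ranged from -0.42 to 1.56 for EGF, -4.19 to 5.53 for EREG (0.90 without VHL replicate 1), -0.25 to 1.41 for HBEGF, 0.11 (without VEC replicate 2) to 1.12 (without VEC replicate 1) for BTC, -0.43 to 0.16 for ERBB2 (0.04 without VEC replicate 1) and -0.45 to 0.66 for ERBB4 (0.28 without VHL replicate 2). EGF was -0.15 without VEC replicate 2. TGFA ranged from 0.38 to 1.16 and EGFR from -0.55 to -0.005. Low counts limit AREG, BTC, ERBB4 and, in replicate 1, EREG.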
